A study of Mus musculus with 6 samples.

Results

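The genes described here encode proteins of the synapse: 41 genes chosen by symbol, out of 21878 rows in the table of expression values. Of these, 25 act on the presynaptic side, in synaptic vesicles, in the fusion machinery and in the active zone, and 16 act on the postsynaptic side, in scaffolds, adhesion and glutamate receptors. The genes were chosen with earlier results of these data known, so the shares of them called are descriptions. The data are RNA sequencing of Neuro-2a, a mouse neuroblastoma cell line able to differentiate towards neurons, in 3 groups of 2 libraries. The groups were cells overexpressing the long noncoding RNA lncPim1, cells given RNA interference against lncPim1 (the knockdown), and control cells labelled wild type. The labels name no empty vector and no scrambled RNA for the control group, do not say how the overexpression was made, and do not state whether replicate libraries were grown as separate cultures. P-values therefore cover the spread among these libraries alone, which may be technical.

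At a chemical synapse, neurotransmitter is stored in small vesicles that dock at the active zone and fuse with the membrane when calcium enters. Fusion is driven by the SNARE proteins, held ready by complexins and triggered by synaptotagmins, while the receiving side holds its receptors in place with scaffolds of the PSD-95, Homer, Shank and gephyrin kind. Sympathetic neurons and chromaffin cells, the lineage that neuroblastoma resembles, also release transmitter from vesicles.

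Values are FPKM, which corrects fragment counts for transcript length and for library size, so levels can be compared between genes. Summed FPKM was between 272528 and 305463 per library. The table holds no counts, and absolute depth is unknown. The most common ratio of low values to those of control replicate 1 gave relative depths of 1.02 and 0.891 for the overexpression libraries, 1.03 and 1.08 for the knockdown libraries, and 0.982 for control replicate 2. Libraries of a group had Spearman correlations of 0.995 to 0.997 over the 10721 genes tested, and the knockdown libraries correlated with the other 4 at 0.976 to 0.984. Rows named for lncPim1 numbered 0, so the targeted RNA gives no check of the labels. Of 15 markers of sympathetic neuroblastoma and neurons, 14 averaged 1 FPKM or more, among them the neuronal tubulin gene Tubb3 with 313 and 337 FPKM under overexpression, 246 and 253 under knockdown and 397 and 388 in control cells. The marker Dbh, the noradrenaline-making enzyme of sympathetic cells, stayed below 0.5 FPKM in all 6 libraries.

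The presynaptic genes were much the more abundant. In control cells their median level was 18.5 FPKM over all 25 genes, and 16 of them reached at least 10 FPKM. The postsynaptic genes had a median of 0.571 FPKM over all 16, and 1 of them, Dlg4, reached 10 FPKM. Cplx1, which encodes complexin 1, was the highest of all with 74.5 ± 0.168 FPKM (SD, n = 2) in control cells. Summed over the presynaptic genes, FPKM was 479.8 and 491.9 under overexpression, 436.6 and 424.8 under knockdown, and 531.8 and 532.7 in control cells. Every treated library was below both control libraries in this sum. Over all rows of the table the knockdown libraries also had the lowest sums. These were 294510 and 303139 under overexpression, 277508 and 272528 under knockdown, and 298032 and 305463 in control cells. The postsynaptic sum was 63.7 and 64.3 FPKM under overexpression, 79.4 and 74.95 under knockdown, and 67.6 and 67.1 in control cells. Without Dlg4 it was 40.6 and 40.1 under overexpression, 41.8 and 40.8 under knockdown, and 44.6 and 43.8 in control cells, so the higher sum under knockdown was that of Dlg4.

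**Figure D1:**
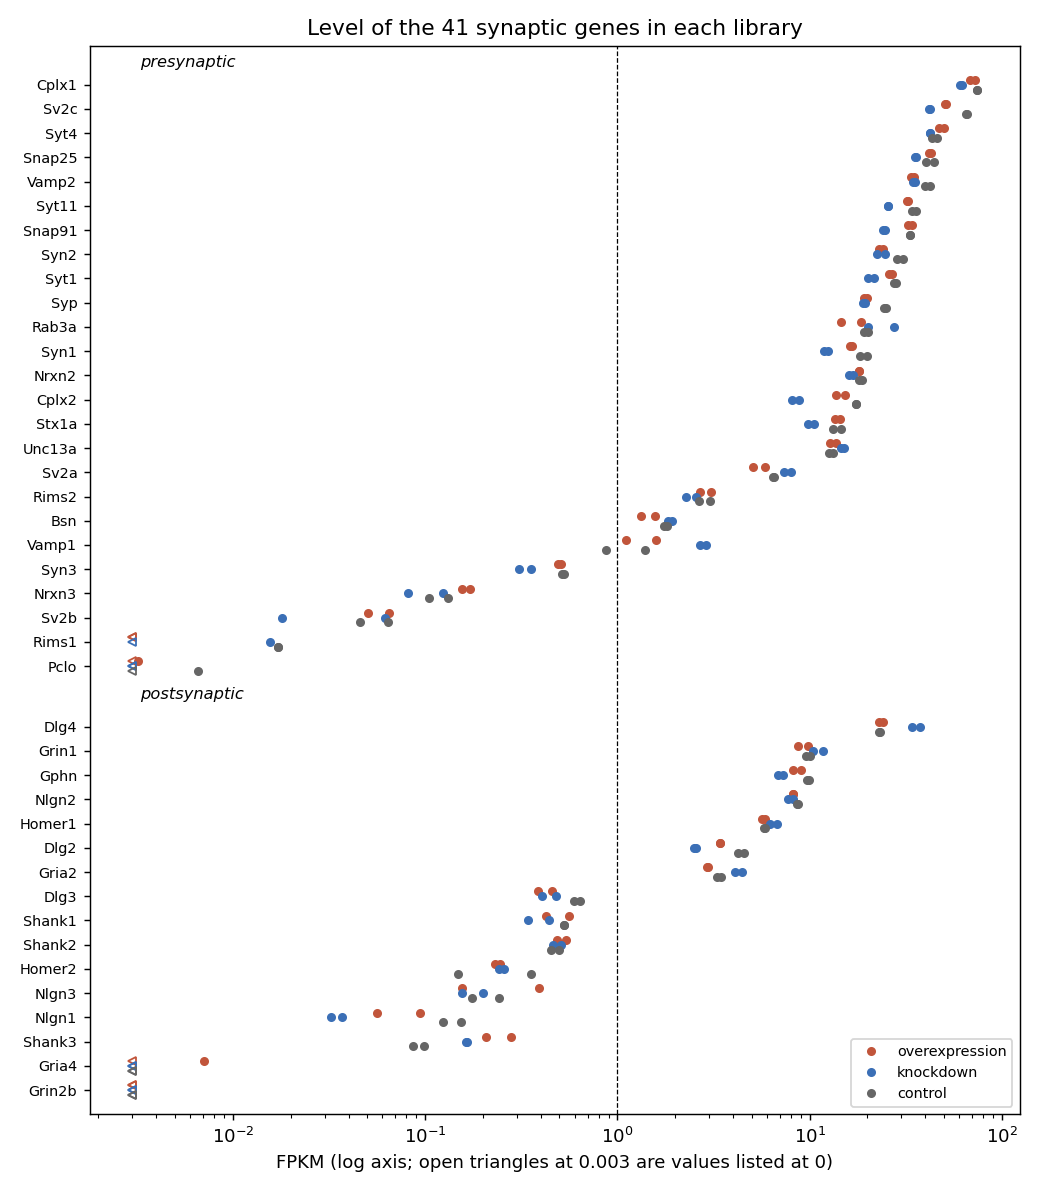
FPKM of each of the 41 genes (log axis) in the 2 overexpression, 2 knockdown and 2 control libraries, presynaptic genes above and postsynaptic genes below, each ordered by its control mean; the dashed line marks the threshold of 1 FPKM. Of the 25 presynaptic genes 20 had a mean at or above the threshold, against 7 of the 16 postsynaptic genes.

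Fold changes were computed for rows averaging 1 FPKM or more across the 6 libraries. This left 27 members, 20 presynaptic and 7 postsynaptic, and each of them averaged 1 FPKM or more in every group. The lowest inside the threshold was Bsn, with a mean of 1.70 FPKM, and the highest outside was Dlg3, with 0.495. The 14 members left out were Syn3, Sv2b, Rims1, Pclo and Nrxn3 on the presynaptic side and Dlg3, Homer2, Shank1, Shank2, Shank3, Nlgn1, Nlgn3, Gria4 and Grin2b on the postsynaptic side. Grin2b was listed at 0 in all libraries, Gria4 was above 0 in 1 overexpression library, and 4 members in all were at 0 in at least 1 library. Changes are log2 fold changes of FPKM + 1, which understate the change of low genes. A gene was called when its limma p-value, adjusted by the Benjamini-Hochberg method over all 10721 genes, was under 0.05.

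Under overexpression 2 of the 27 members were lower, 0 were higher and 25 were not called, where 1.54% of all genes tested were called, 0.849% lower and 0.69% higher. Both lower genes encode integral proteins of the vesicle membrane, Syp and Sv2c. Another 8 members, 6 presynaptic and 2 postsynaptic, had an unadjusted p under 0.05 without being called. The median log2 fold change was -0.09 over the 20 presynaptic genes and -0.08 over the 7 postsynaptic genes, beside -0.003 over all genes tested. Both medians were negative, and 21 of the 27 members had a negative fold change, as did 51.3% of all genes tested.

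Under knockdown 15 members were lower, 5 were higher and 7 were not called. Many genes of the whole table changed in this comparison: 46.2% were called, 31.3% lower and 14.8% higher. Of the 20 presynaptic genes 13 were lower, which is 65%, and 3 were higher, which is 15%. Of the 7 postsynaptic genes 2 were lower and 2 higher. The median log2 fold change was -0.26 over the presynaptic and 0.12 over the postsynaptic genes, beside -0.070 over all genes. Among genes averaging 5 FPKM or more, where the share called was 52.0%, 17 of 22 members were called. After scaling the libraries to a common median log ratio the presynaptic median was -0.18, beside 0.0047 over all genes. After quantile normalization it was -0.14, beside -0.014 over all genes. The higher genes then made up 49.5% and 46.6% of all calls in the table, in that order, against 32.1% without such scaling. The presynaptic and postsynaptic medians are descriptions, and their difference was not tested.

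**Figure D2:**
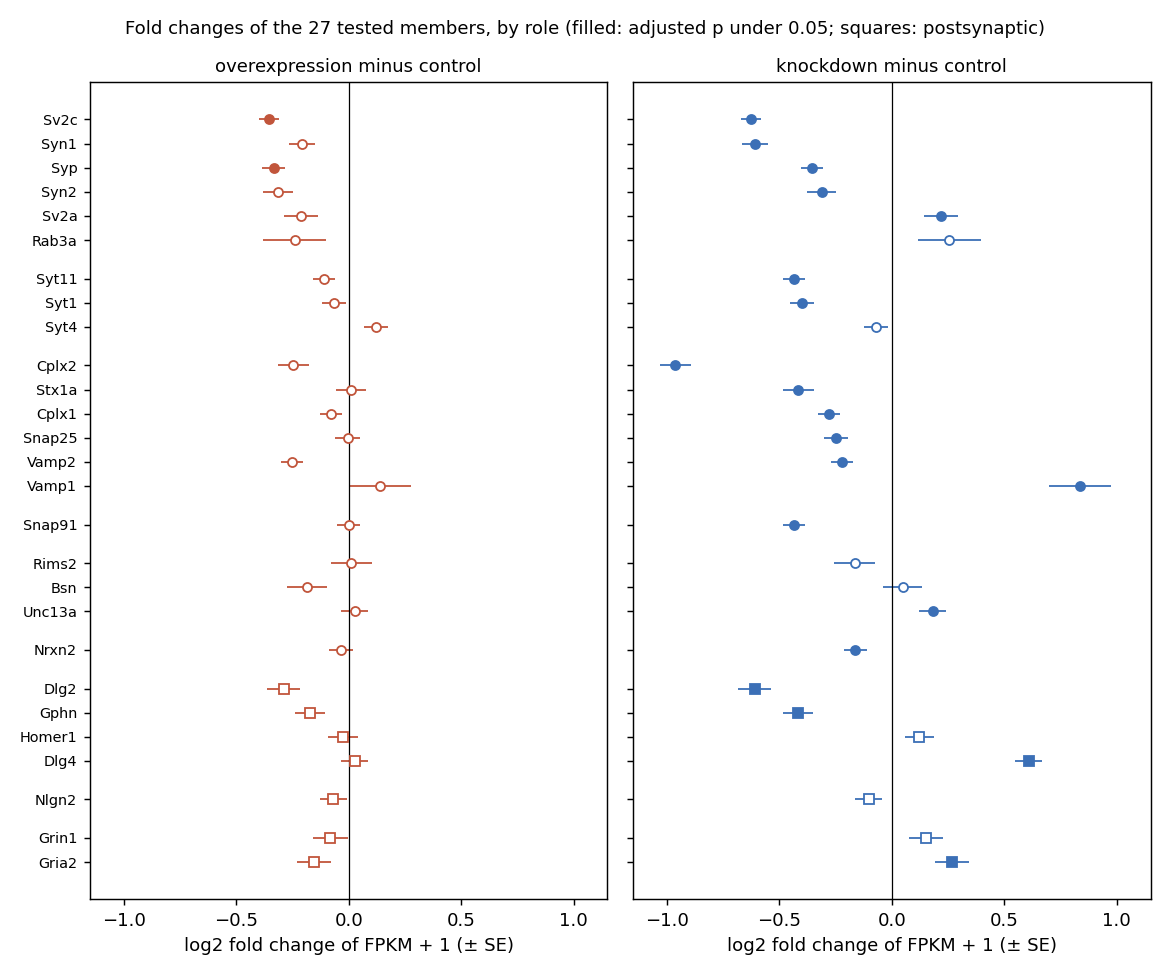
Log2 fold change of FPKM + 1 for the 27 tested members, overexpression minus control on the left and knockdown minus control on the right, with bars of 1 SE from limma; circles are presynaptic genes, squares postsynaptic genes, and filled symbols have an adjusted p under 0.05. The 2 filled symbols on the left are Sv2c and Syp; on the right 20 are filled, from Cplx2 at -0.96 to Vamp1 at 0.84.

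The comparisons with control share the control libraries, so whether a gene responded differently was read from overexpression against knockdown directly. There 12 members were higher under overexpression, 6 were lower and 9 were not called, where 40.5% of all genes were called, 28.1% higher and 12.4% lower. Of the 12 higher members 10 are presynaptic, as are 20 of the 27 tested members. The largest positive differences were those of Cplx2 (0.72 ± 0.07), Stx1a (0.43 ± 0.07) and Snap91 (0.43 ± 0.05), and the largest negative ones those of Vamp1 (-0.70 ± 0.14) and Dlg4 (-0.58 ± 0.06). Of the 18 calls, 12 were kept in every setting tried in which the gene was tested: Cplx2, Dlg2, Dlg4, Gria2, Snap91, Stx1a, Sv2a, Sv2c, Syn1, Syt1, Syt11 and Vamp1. The split depended on scaling: it was 9 higher and 9 lower after median log ratio scaling, and 9 higher and 8 lower after quantile normalization.

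Synaptophysin, encoded by Syp, is an abundant membrane protein of synaptic vesicles. Syp had 19.2 and 19.8 FPKM under overexpression, 18.95 and 19.4 under knockdown, and 25.1 and 24.5 in control cells. All 4 treated libraries lay below both control libraries, and the treated groups overlapped each other. Syp fell by 0.33 ± 0.05 (SE) on the log2 scale in overexpressing cells (limma, adjusted p = 0.0207) and by 0.36 ± 0.05 in knockdown cells (limma, adjusted p = 8.55e-04), with a difference of 0.02 ± 0.05 between overexpression and knockdown (limma, adjusted p = 0.744). Syp occupies 7638471 to 7653256 of chromosome X (GRCm38, plus strand), and 16.8% of its exonic bases are shared with the antisense gene Gm14703, whose level was not analysed here. How strand was handled in counting is not stated in the labels, and without it reads from the shared bases cannot be assigned to either gene.

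Sv2c encodes synaptic vesicle glycoprotein 2C, one of a family of transporter-like vesicle proteins. Its values were 51.2 and 50.5 FPKM under overexpression, 42.3 and 41.6 under knockdown, and 65.1 and 65.5 in control cells. The 3 groups did not overlap, with knockdown lowest and control highest. Sv2c fell by 0.35 ± 0.04 on the log2 scale with overexpression (limma, adjusted p = 0.0109) and by 0.63 ± 0.04 with knockdown (limma, adjusted p = 8.31e-05), and overexpression was above knockdown by 0.27 ± 0.04 (limma, adjusted p = 0.00222). Under overexpression the calls of both Syp and Sv2c were lost on leaving out either library of the overexpression or control group, with the lone library assumed to vary like the others (limma, adjusted p = 0.0623 to 0.193). They were also lost when all rows above 0 were tested (limma, adjusted p = 0.0685 and 0.0545). Under knockdown Syp and Sv2c were called in every setting tried.

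The paralog Sv2a, which encodes the vesicle protein that the drug levetiracetam binds, moved the other way under knockdown. Sv2a had 5.08 and 5.84 FPKM under overexpression, 8.03 and 7.35 under knockdown, and 6.42 and 6.51 in control cells. Its log2 fold change was 0.22 ± 0.08 under knockdown (limma, adjusted p = 0.0458), a call lost without either control library, without knockdown replicate 1 and with all rows tested (limma, adjusted p = 0.101 to 0.209). Sv2a was lower under overexpression than under knockdown by a log2 difference of -0.43 ± 0.08 (limma, adjusted p = 0.00324), a call kept in every setting tried. Sv2b stayed at or below 0.0646 FPKM in all libraries. Rab3a, a small GTPase of the vesicle surface, had 14.5 and 18.6 FPKM under overexpression, 27.4 and 20.2 under knockdown, and 19.1 and 20.1 in control cells. Its knockdown libraries differed from each other by more than their mean differed from that of control, and Rab3a was not called against control (limma, adjusted p = 0.424 for overexpression and 0.165 for knockdown), but was called under knockdown without knockdown replicate 2 (limma, adjusted p = 0.0201). Rab3a was lower under overexpression than under knockdown, with a log2 difference of -0.50 ± 0.14 (limma, adjusted p = 0.0218), a call lost without overexpression replicate 1 or knockdown replicate 1 and with all rows tested (limma, adjusted p = 0.101 to 0.128).

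Synapsins are phosphoproteins that tether vesicles in the reserve pool. Syn1 had 16.5 and 16.2 FPKM under overexpression, 11.9 and 12.4 under knockdown, and 19.8 and 18.4 in control cells, with no overlap between any of the groups. It fell by 0.61 ± 0.06 under knockdown (limma, adjusted p = 1.79e-04), and the overexpression difference of -0.21 ± 0.06 was not called (limma, adjusted p = 0.121). Overexpression was above knockdown by 0.40 ± 0.06 (limma, adjusted p = 0.00133). Syn2 had 22.9 and 24.2 FPKM under overexpression, 24.8 and 22.4 under knockdown, and 30.7 and 28.4 in control cells. Here the treated groups overlapped each other and lay below both controls. The difference of Syn2 from control was -0.31 ± 0.07 in each comparison, called under knockdown (limma, adjusted p = 0.00536) but not after quantile normalization (limma, adjusted p = 0.0582), and not called under overexpression (limma, adjusted p = 0.0615), where it passed with only the 4 libraries of the contrast (limma, adjusted p = 0.0468) and without knockdown replicate 1 or 2 (limma, adjusted p = 0.0480 and 0.0477). Syn3, below the threshold, had 0.492 and 0.512 FPKM under overexpression, 0.309 and 0.356 under knockdown, and 0.530 and 0.515 in control cells. In the annotation 14.1% of the exonic bases of Syn3 are shared with Timp3 on the opposite strand. Timp3 averaged 1.33 FPKM under overexpression, 0.569 under knockdown and 0.297 in control cells.

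Promoter sequences, from 250 bases before to 50 bases after the transcription start, were found for 31 of the 41 genes in RefSeq on build GRCm38.p6. Those of Syn1 and Syn2 are shown because both synapsin genes were lower under knockdown and each holds a match to a motif known from neuronal or activity-dependent genes. The Syn1 window is chrX:20920869-20921168 on the minus strand and the Syn2 window chr6:115134652-115134951 on the plus strand. Capitals in Syn1 mark a match to RE1, the element bound by the repressor REST, and further on the cyclic AMP response element TGACGTCA. Capitals in Syn2 mark GCGGGGGCG, an element bound by EGR factors.
Syn1 promoter: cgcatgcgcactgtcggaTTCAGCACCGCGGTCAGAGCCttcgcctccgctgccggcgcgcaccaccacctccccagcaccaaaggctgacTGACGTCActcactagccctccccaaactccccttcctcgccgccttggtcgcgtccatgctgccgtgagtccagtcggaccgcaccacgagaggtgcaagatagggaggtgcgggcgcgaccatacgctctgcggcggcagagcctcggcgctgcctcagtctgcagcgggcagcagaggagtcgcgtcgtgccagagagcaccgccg
Syn2 promoter: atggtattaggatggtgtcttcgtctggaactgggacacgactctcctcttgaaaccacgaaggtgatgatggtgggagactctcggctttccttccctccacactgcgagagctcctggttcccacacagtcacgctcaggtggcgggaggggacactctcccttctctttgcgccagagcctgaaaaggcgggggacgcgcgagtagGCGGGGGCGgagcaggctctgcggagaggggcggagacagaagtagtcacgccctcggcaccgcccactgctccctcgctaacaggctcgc
RE1, of 19 letters, was searched on both strands, as were the other motifs. The Syn1 match runs from -230 to -212, counted from the start site, with the substitution A12T (positions counted from 1 at the 5′ end of the motif), and the 2 capital letters before it belong to its left part, TTCAGCACC, which overlaps it. These 9 letters were in 3 of the 31 genes (Nlgn1, Syn1 and Unc13a) and in 0.433% of all genes with a promoter sequence. With no mismatch allowed the motif was in 0 of the 31 genes and in 2 of all 27025 genes with a promoter sequence. With 1 mismatch it was in Syn1 and in 10 of the 27025 genes (0.0370%), a search added after the letters had been seen. The cyclic AMP element runs from -159 to -152 in Syn1, the only member holding it (3.23% of 31), and 2.03% of the 27025 genes hold it. The EGR element, searched as GCGGGGGCG or GCGTGGGCG, was in 5 of the 31 genes (16.1%), Cplx1, Grin1, Shank3, Syn2 and Unc13a. Of the 27025 genes, which include noncoding genes, 3.93% hold the EGR element. In Syn2 it runs from -41 to -33. Such matches describe the letters of the window and show no binding.

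REST represses neuronal genes in cells outside the nervous system. Rest had 3.32 and 2.76 FPKM under overexpression, 4.14 and 3.92 under knockdown, and 2.71 and 2.83 in control cells. The knockdown libraries were above the other 4, a log2 fold change of 0.42 ± 0.09 against control (limma, adjusted p = 0.00478). Among 10 genes of REST and its cofactors, 1 was higher and 5 were lower under knockdown, beside 14.8% and 31.3% of all genes tested. Hdac2 (-0.58 ± 0.06), a histone deacetylase, Rcor2 (-0.47 ± 0.07), a corepressor, and Hdac1 (-0.31 ± 0.05) fell most. Under overexpression limma called 0 of the 10, beside 1.54% of all genes tested, and 2 had an unadjusted p under 0.05. The part of Rest in the values of the synaptic genes was not tested.

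Synaptotagmins are vesicle proteins, of which synaptotagmin 1 is the calcium sensor of fast release. Syt1 had 26.0 and 26.9 FPKM under overexpression, 21.5 and 20.1 under knockdown, and 28.0 and 27.4 in control cells. Syt11, a member of the family that does not bind calcium, had 32.0 and 32.6 FPKM under overexpression, 25.6 and 25.6 under knockdown, and 34.1 and 35.8 in control cells. In both genes the knockdown libraries lay well below the rest, and the overexpression libraries lay just below the controls. Syt1 fell by 0.40 ± 0.05 and Syt11 by 0.44 ± 0.05 under knockdown (limma, adjusted p = 6.79e-04 and 3.23e-04), and neither was called under overexpression (limma, adjusted p = 0.590 and 0.301). Syt4, induced by activity in neurons, had 49.9 and 47.1 FPKM under overexpression, 42.4 and 42.4 under knockdown, and 43.1 and 45.9 in control cells. It was not called against control, and overexpression stood above knockdown by 0.19 ± 0.05 (limma, adjusted p = 0.0207), a call lost under median log ratio or quantile scaling (limma, adjusted p = 0.116 and 0.391) and without overexpression replicate 1, knockdown replicate 1 or knockdown replicate 2 (limma, adjusted p = 0.0597 to 0.120). In the annotation 14.5% of the exonic bases of Syt4 are shared with the antisense gene Gm26658, whose level was not analysed here. All 3 synaptotagmin genes among the members were higher under overexpression than under knockdown, where 28.1% of all genes tested were called higher. Outside the members, the synaptotagmin gene Syt5 was lower in this comparison (-0.65 ± 0.06). The other synaptotagmin genes listed and tested were not called in it.

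Complexins clamp and assist the SNARE complex. Cplx2 had the largest fall of all members under knockdown, with 13.7 and 15.4 FPKM under overexpression, 8.13 and 8.80 under knockdown, and 17.4 and 17.4 in control cells. Knockdown was at 0.486 of the control mean, and the groups did not overlap. Cplx2 fell by 0.96 ± 0.07 on the log2 scale under knockdown (limma, adjusted p = 8.04e-05), and its difference of -0.25 ± 0.07 under overexpression was not called (limma, adjusted p = 0.121). Cplx1 had 68.5 and 72.6 FPKM under overexpression, 62.3 and 60.3 under knockdown, and 74.4 and 74.6 in control cells. The fall of Cplx1 under knockdown was 0.28 ± 0.05 (limma, adjusted p = 0.00233), not called after quantile normalization (limma, adjusted p = 0.0759). The Cplx2 to Cplx1 ratio of FPKM was 0.201 and 0.212 under overexpression, 0.131 and 0.146 under knockdown, and 0.234 and 0.233 in control cells.

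The SNARE genes split between the paralogs of synaptobrevin, the vesicle SNARE. Vamp2, the main form in forebrain, had 33.8 and 34.8 FPKM under overexpression, 35.5 and 34.6 under knockdown, and 40.0 and 42.1 in control cells. Vamp1, prominent in spinal cord and at the neuromuscular junction, had 1.11 and 1.59 FPKM under overexpression, 2.70 and 2.88 under knockdown, and 0.874 and 1.40 in control cells. Vamp2 was therefore lower in every treated library and Vamp1 was highest in the knockdown libraries. Vamp1 showed the largest rise of all tested members, 0.84 ± 0.14 under knockdown (limma, adjusted p = 0.00173), at 2.46 times the control mean. Vamp2 fell by 0.22 ± 0.05 under knockdown (limma, adjusted p = 0.00742), a call lost after quantile normalization (limma, adjusted p = 0.233) and without control replicate 2 (limma, adjusted p = 0.0631). Under overexpression its difference of -0.25 ± 0.05 was not called (limma, adjusted p = 0.0523), but it passed with median log ratio scaling and among genes averaging 5 FPKM or more (limma, adjusted p = 0.0438 and 0.0472). The Vamp1 to Vamp2 ratio was 0.0328 and 0.0455 under overexpression, 0.0760 and 0.0832 under knockdown, and 0.0219 and 0.0331 in control cells, so Vamp2 remained by far the more abundant.

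The SNAREs of the plasma membrane fell under knockdown and overlapped control under overexpression. Stx1a, encoding syntaxin 1A, had 14.4 and 13.5 FPKM under overexpression, 9.79 and 10.5 under knockdown, and 13.2 and 14.5 in control cells. Snap25 had 41.6 and 42.8 FPKM under overexpression, 35.3 and 35.6 under knockdown, and 44.2 and 40.5 in control cells. In both, the overexpression libraries overlapped the controls and the knockdown libraries lay below all others. Stx1a fell by 0.42 ± 0.07 (limma, adjusted p = 0.00163) and Snap25 by 0.25 ± 0.05 (limma, adjusted p = 0.00639), the second not called after quantile normalization (limma, adjusted p = 0.185) or without control replicate 1 (limma, adjusted p = 0.0574). Snap91, which encodes the clathrin adaptor AP180 that helps retrieve vesicle membrane, followed the same pattern. Its values were 32.4 and 34.1 FPKM under overexpression, 24.0 and 24.7 under knockdown, and 33.4 and 33.1 in control cells, a fall of 0.43 ± 0.05 under knockdown (limma, adjusted p = 3.37e-04).

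**Figure D3:**
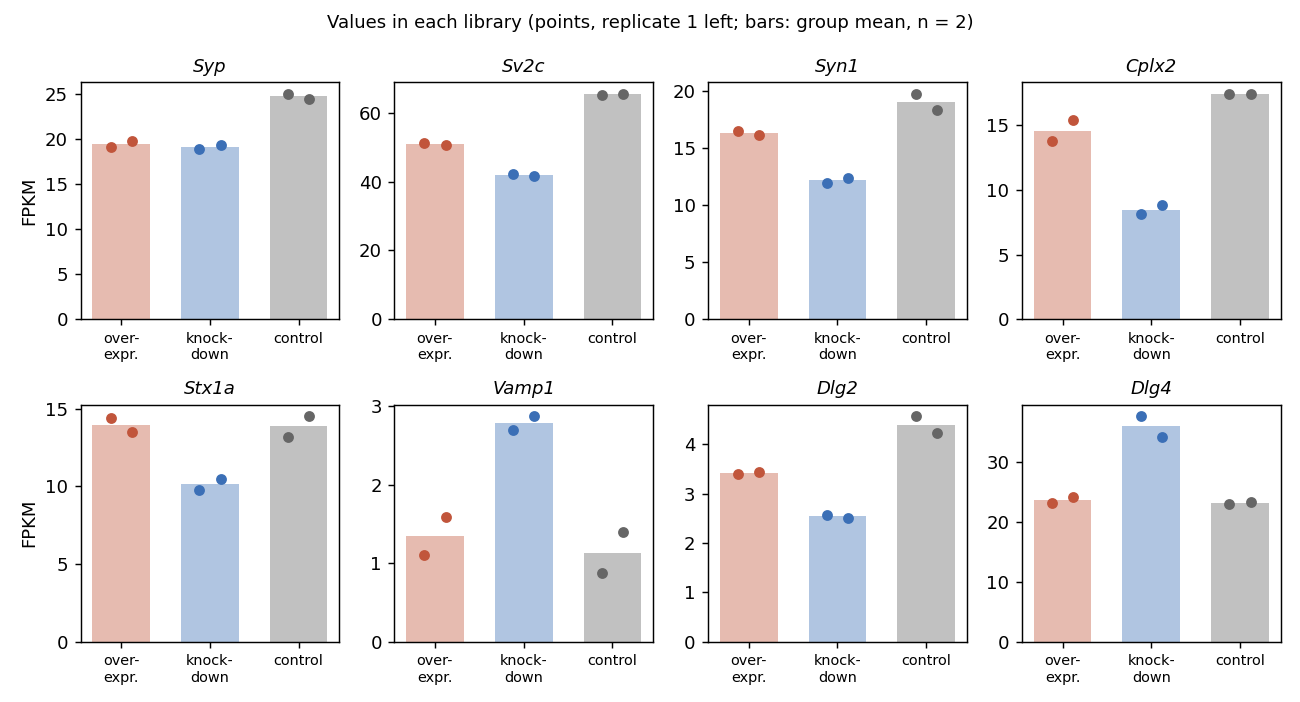
FPKM of 8 members in each of the 6 libraries (points) with the group means (bars, n = 2), overexpression and knockdown left of control, each panel with its own axis from 0. Syp and Sv2c were lower in both treated groups, Stx1a was lower under knockdown and overlapped control under overexpression, and Vamp1 and Dlg4 were higher under knockdown.

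Of the 5 active zone genes 3 were tested. Under knockdown 1 of them was higher and 0 were lower, beside 14.8% and 31.3% of all genes tested. Under overexpression limma called 0 of the 3, and 0 had an unadjusted p under 0.05. Unc13a, encoding the priming factor Munc13-1, had 13.7 and 12.7 FPKM under overexpression, 14.5 and 15.05 under knockdown, and 13.3 and 12.6 in control cells. The rise of 0.18 ± 0.06 under knockdown (limma, adjusted p = 0.0350) was lost without either control library, without either knockdown library and with all rows tested (limma, adjusted p = 0.0564 to 0.181). In the annotation 3.92% of its exonic bases are shared with Colgalt1. Rims2, which links vesicles to calcium channels, had 3.05 and 2.69 FPKM under overexpression, 2.28 and 2.57 under knockdown, and 3.04 and 2.65 in control cells. Bsn, encoding the scaffold bassoon, had 1.56 and 1.33 FPKM under overexpression, 1.83 and 1.92 under knockdown, and 1.75 and 1.82 in control cells. Neither was called against control (limma, adjusted p = 0.171 to 0.967). Pclo and Rims1 were close to 0, with at most 0.0172 FPKM in a library. Nrxn2, a presynaptic adhesion receptor, had 18.0 and 18.0 FPKM under overexpression, 16.8 and 16.0 under knockdown, and 18.2 and 18.8 in control cells. Its fall of 0.16 ± 0.05 under knockdown (limma, adjusted p = 0.0335) was not called under median log ratio or quantile scaling (limma, adjusted p = 0.229 and 0.531), nor when any library other than knockdown replicate 1 was left out (limma, adjusted p = 0.0508 to 0.164).

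The Unc13a promoter, chr8:71671708-71672007 on the minus strand, is shown because the left and right parts of RE1 both lie in it, with a wider gap than in the standard motif. In capitals are an EGR element on the opposite strand, from -25 to -17, and the RE1 parts with the letters between them and the rest of TTCAGCACC, also on the opposite strand.
Unc13a promoter: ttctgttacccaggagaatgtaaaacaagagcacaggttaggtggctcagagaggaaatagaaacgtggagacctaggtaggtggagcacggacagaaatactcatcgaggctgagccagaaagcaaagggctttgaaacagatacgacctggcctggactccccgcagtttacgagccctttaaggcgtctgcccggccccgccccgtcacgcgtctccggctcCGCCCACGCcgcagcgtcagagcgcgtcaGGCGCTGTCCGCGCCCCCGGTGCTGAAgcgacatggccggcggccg
The RE1 parts are 8 letters apart and together run from 5 to 29. This spaced form was searched with a gap of 3 to 10 letters after the window had been seen, and 2 of 27025 genes with a promoter sequence hold it. The part of the RE1 match in the values of Syn1, and of the spaced form in those of Unc13a, was not tested.

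On the postsynaptic side the scaffold genes went in both directions under knockdown. Dlg4, which encodes PSD-95, the main scaffold of excitatory synapses, had 23.1 and 24.2 FPKM under overexpression, 37.6 and 34.2 under knockdown, and 23.0 and 23.3 in control cells. Its paralog Dlg2, encoding PSD-93, had 3.41 and 3.43 FPKM under overexpression, 2.56 and 2.52 under knockdown, and 4.57 and 4.23 in control cells. The knockdown libraries thus held the highest Dlg4 and the lowest Dlg2 values. Dlg4 rose by 0.61 ± 0.06 (limma, adjusted p = 1.86e-04), to 1.55 times the control mean, and Dlg2 fell by 0.61 ± 0.07 (limma, adjusted p = 4.05e-04), to 0.577 of it. Under overexpression neither was called (limma, adjusted p = 0.866 for Dlg4 and 0.0998 for Dlg2, whose groups did not overlap). The Dlg4 to Dlg2 ratio was 6.76 and 7.05 under overexpression, 14.7 and 13.6 under knockdown, and 5.03 and 5.52 in control cells. Dlg4 occupies 70016942 to 70047522 of chromosome 11 (GRCm38, plus strand), and in GENCODE release M 21 it shares 0 exonic bases with another gene, as do Vamp1, Cplx2, Sv2c, Stx1a, Syt1, Syt11 and Snap91. Dlg3 was below the threshold, with 0.387 and 0.459 FPKM under overexpression, 0.405 and 0.481 under knockdown, and 0.641 and 0.595 in control cells.

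**Figure D4:**
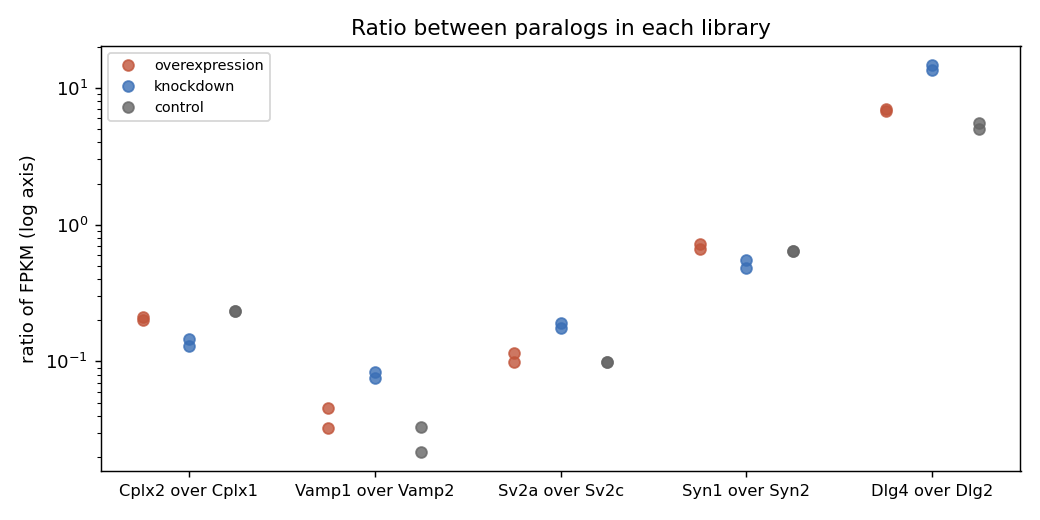
Ratio of FPKM between 5 pairs of paralogs (log axis) in each overexpression, knockdown and control library; the pairs were chosen after their values had been seen. The Dlg4 to Dlg2 ratio was 14.7 and 13.6 in the knockdown libraries, against 5.03 and 5.52 in control, and the Cplx2 to Cplx1 ratio 0.131 and 0.146, against 0.234 and 0.233.

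Gphn encodes gephyrin, the scaffold of inhibitory synapses, which also has a role in molybdenum cofactor synthesis in all tissues. Gphn had 8.98 and 8.15 FPKM under overexpression, 7.28 and 6.85 under knockdown, and 9.90 and 9.66 in control cells. The groups did not overlap, with knockdown lowest and control highest. It fell by 0.42 ± 0.07 under knockdown (limma, adjusted p = 0.00148) and was not called under overexpression (limma, adjusted p = 0.236). Homer1, a scaffold that binds metabotropic glutamate receptors, had 5.83 and 5.63 FPKM under overexpression, 6.20 and 6.74 under knockdown, and 5.90 and 5.82 in control cells, and was not called under knockdown (limma, adjusted p = 0.159), though it passed with median log ratio scaling (limma, adjusted p = 0.0448). Shank1, Shank2, Shank3 and Homer2 stayed below 0.6 FPKM in all libraries. Nlgn2, an adhesion protein of inhibitory synapses, had 8.20 and 8.17 FPKM under overexpression, 7.74 and 8.19 under knockdown, and 8.70 and 8.56 in control cells, and was not called against control (limma, adjusted p = 0.610 and 0.183). Nlgn1 and Nlgn3 stayed below 0.4 FPKM.

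Of the 4 glutamate receptor genes, Gria2 and Grin1 were tested. Gria2, the AMPA receptor subunit that makes the channel impermeable to calcium once its RNA is edited, had 2.97 and 2.91 FPKM under overexpression, 4.47 and 4.08 under knockdown, and 3.48 and 3.29 in control cells. The groups did not overlap, with knockdown highest and overexpression lowest. Gria2 rose by 0.27 ± 0.07 under knockdown (limma, adjusted p = 0.0186), a call lost without either control library or knockdown replicate 1 (limma, adjusted p = 0.0520 to 0.105), and was lower under overexpression than under knockdown by a log2 difference of -0.42 ± 0.07 (limma, adjusted p = 0.00316). Grin1, the obligatory NMDA receptor subunit, had 8.71 and 9.76 FPKM under overexpression, 11.7 and 10.4 under knockdown, and 9.57 and 10.1 in control cells. Grin1 was not called against control (limma, adjusted p = 0.647 for overexpression and 0.136 for knockdown), but passed under knockdown with median log ratio scaling (limma, adjusted p = 0.0364). Grin1 was lower under overexpression than under knockdown, by a log2 difference of -0.23 ± 0.08 (limma, adjusted p = 0.0395). This call was lost with all rows tested, without the expression trend and with only the 4 libraries of the contrast (limma, adjusted p = 0.0524 to 0.0975). The call was also lost without either control library, which left the difference unchanged. It was lost too without overexpression replicate 1, where the difference was -0.16, and without knockdown replicate 1, where the difference was -0.15. Of the exonic bases of Grin1 13.5% are shared with the antisense gene Grin1os, listed at 0.0476 FPKM or less in every library. The Grin1 partner Grin2b was listed at 0 throughout.

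Beyond the members, 70 other presynaptic and 76 other postsynaptic genes were listed, of which 40 and 22 were tested. In the other presynaptic genes 2 were lower and 0 higher under overexpression, beside 0.849% and 0.69% of all genes tested. The lower ones were Sncg (-0.35 ± 0.06), which encodes gamma-synuclein, and Rab3c (-0.28 ± 0.05), a paralog of Rab3a. Under knockdown 15 of the 40 were lower, which is 37.5%, and 3 higher, which is 7.5%, beside the 31.3% and 14.8% of all genes. Of the 20 tested presynaptic members 65% were lower and 15% higher. Erc1 (-0.51 ± 0.08), an active zone scaffold, Syt17 (-0.45 ± 0.07) and Sncg (-0.42 ± 0.06) fell, and the synaptotagmin gene Syt5 rose (0.48 ± 0.06). The median of the other presynaptic genes was -0.06 under overexpression and -0.09 under knockdown. Under knockdown the presynaptic members had a median of -0.26 and all genes tested -0.070. The knockdown shift of the presynaptic members thus did not extend at that size to the other presynaptic genes. In the other postsynaptic genes 1 was higher and 1 lower under overexpression, both of them genes of AMPA receptor auxiliary subunits: Cacng4 (0.66 ± 0.13) and Cacng3 (-0.29 ± 0.06). Under knockdown 5 of these 22 were higher and 8 lower, beside the 14.8% and 31.3% of all genes. Dlgap3 (-0.49 ± 0.08), which encodes a partner of PSD-95, and Homer3 (-0.35 ± 0.07) fell, and the activity-induced gene Arc rose (0.54 ± 0.06). The median of the other postsynaptic genes was -0.05 under overexpression and -0.04 under knockdown.

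Markers of other cell types were low, with 1 exception that moved with the knockdown. Summed over 10 astrocyte and oligodendrocyte markers, FPKM was between 2.96 and 3.50 in all libraries, with Slc1a3, Mog and Mag at 0, and over 10 fibroblast and macrophage markers between 1.14 and 1.65. The most abundant of these were Mbp, at 1.505 to 2.04 FPKM, and Pdgfra, at 0.491 to 1.12. Summed over 12 digestive-tract markers, FPKM was 27.8 and 38.3 under overexpression, 4.68 and 4.97 under knockdown, and 35.8 and 29.1 in control cells. Of that list 11 genes were tested. Reg1, Reg3b, Prap1, Fabp1, Tff2, Defa24, Zg16 and Cdx2 were listed at 0 in both knockdown libraries. Genes at 0 there could pass the threshold of 1 FPKM only through the other groups, which fixes their direction under knockdown in advance. All 11 were called lower under knockdown, but because of that limit the count cannot be set against the share of all genes tested. Under overexpression 1, Reg3b, was lower, beside 0.849% of all genes tested. Vil1, the most abundant marker of that list, had 5.06 and 5.39 FPKM under overexpression, 4.08 and 4.51 under knockdown, and 5.03 and 5.46 in control cells. Of the 14 tested neuroblastoma and neuronal markers, 9 were lower and 1 higher under knockdown, beside 31.3% and 14.8% of all genes tested. Under overexpression 2 of the 14 were lower, beside 0.849% of all genes tested. Tubb3 fell by 0.65 ± 0.05, Hand2 by 0.60 ± 0.06 and Phox2a by 0.58 ± 0.08 under knockdown, and Th, encoding tyrosine hydroxylase, rose by 0.99 ± 0.12. The part of these marker levels in the values of the synaptic genes was not tested. In bulk RNA, fewer cells expressing a gene and less RNA per cell cannot be told apart.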

How the data were processed

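The 6 Neuro-2a libraries were made with a stranded mRNA kit, per the labels' protocols. The authors deposited FPKM values for 21878 rows. The submitters' processing notes name build mm10 and the tools Trimmomatic, HISAT2, Cufflinks, HTSeq and DESeq. Their versions, and the annotation, were not given in the sources used here. Depth could be read only relative to control replicate 1.

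Values were transformed as log2(FPKM + 1). The 10721 genes averaging 1 FPKM or more were analysed with limma 3.58.1 under R 4.3.3, with 1 mean per group, moderation along the expression trend and 3 residual degrees of freedom, and Benjamini-Hochberg adjusted p under 0.05 as the call. The fit was tested on simulated data with independent noise and far fewer changed genes than were called under knockdown. It therefore gives no error rate for that comparison. Coordinates came from GENCODE release M 21 (GRCm38) and promoters from RefSeq (GRCm38.p6). The members and lists were chosen with earlier results of these data known. Of each other list, up to 4 called genes per comparison with the largest change and no overlap between groups could be named, plus Rest and the most abundant marker. One gene eligible under this rule is not reported here. Other pseudocounts, filters, scalings and fits, and leaving out each library, were tried.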

Additional observations from a re-analysis of the deposited data

How the results depend on the processing

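Of 1281 refitted member fold changes, 1173 kept their direction and side of the threshold, 66 lost a call, 15 gained one and 27 changed sign, 0 of them called. Under overexpression the 2 member calls became 0 with all rows tested and 1 with a replicate block, and ranged from 0 to 3 on leaving out single libraries. Knockdown calls, 20, ranged from 15 to 21 and overexpression against knockdown, 18, from 14 to 18 over all settings. Over all genes, the 165 overexpression calls became 9 with all rows tested, 97 without the expression trend, 66 with the block, 14 to 46 without a control or overexpression library, and 169 and 172 without a knockdown library. Replicate numbers did not pair the libraries: deviations of same-numbered libraries correlated at -0.117 (overexpression and control), 0.00692 (knockdown and control) and -0.211 (overexpression and knockdown). With the block 17 knockdown calls and 17 overexpression against knockdown calls were made. Calls lost with the block were Syp under overexpression (limma, adjusted p = 0.0544), Nrxn2, Sv2a and Unc13a under knockdown (limma, adjusted p = 0.0627, 0.0701 and 0.0544) and Grin1 between the treated groups (limma, adjusted p = 0.0624). Crossing the overexpression numbers, chosen after seeing the data, gave 3, 20 and 18 member calls, and 258 overexpression calls over all genes. Small differences changed sign. With median log ratio scaling these were Snap91 under overexpression (0.0039), Syt4 under knockdown (0.014), and Nlgn2 (-0.036) and Syp (-0.054) between the treated groups. With quantile normalization they were Rims2 (-0.0039), Snap25 (0.015) and Snap91 (0.023) under overexpression, Bsn (-0.035) and Syt4 (0.077) under knockdown, and Nlgn2 (-0.0065) and Syp (-0.072) between the treated groups. Without single libraries, overexpression differences ran from -0.0068 to 0.059 for Dlg4, -0.061 to 0.085 for Rims2, -0.067 to 0.057 for Snap25, -0.035 to 0.034 for Snap91, -0.054 to 0.076 for Stx1a, -0.023 to 0.076 for Unc13a and -0.037 to 0.32 for Vamp1, and those between the treated groups from -0.0010 to 0.071 for Nlgn2 and -0.073 to 0.071 for Syn2. The cause of these changes was not tested. Absolute depth is unknown, so no counting error can be given for low genes.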
